A study of Mus musculus with 4 samples.

Results

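Genes of the collecting duct and of the urothelium were followed in RNA sequencing of whole mouse kidneys taken at E18.5, shortly before birth. The set was given as a list of 29 gene symbols, 18 for the collecting duct and 11 for the urothelium, out of 23852 symbols named in any of the deposited tables. Of these, 27 had a row of their own in all 4 libraries, and Gata3 and Krt15 did not. The 2 control libraries came from kidneys of genotype Hnf4a c/+ with Six2GFPcre (1 conditional and 1 intact allele of the nuclear receptor gene Hnf4a), and the 2 mutant libraries from Hnf4a c/c with Six2GFPcre (both alleles conditional). Every library was of mixed strain, and all carried the Cre, so the controls could also lose 1 copy of Hnf4a in Cre-active cells. Six2GFPcre is active in nephron progenitors. The tubules these cells form can lose Hnf4a, whereas stroma, vessels and the ureteric tree lie outside that lineage. No label names an animal. The replicates within each group differ in the sex pattern given below, so each p-value rests on a spread that includes it.

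As background, the collecting duct grows from the ureteric bud and not from Six2-positive progenitors. Its principal cells take up sodium through the epithelial channel ENaC and water through aquaporins, under aldosterone and vasopressin, and its intercalated cells move acid and base. The urothelium, the stratified lining of the renal pelvis and ureter, seals the urinary tract with plaques of uroplakin proteins on its surface cells above a basal layer. The connecting tubule, which joins nephron and duct, arises from nephron progenitors and shares several principal and intercalated cell genes, so a value for whole kidney sums both sources. In whole tissue, fewer cells of a type and less RNA per cell cannot be told apart.

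Levels are given in FPKM, which corrects a fragment count for transcript length and library size. The tables hold no read totals, and so the depth is unknown. Between 13552 and 13646 named genes per library reached an FPKM of 1. Hnf4a, measured over the whole gene, was at 89.3 and 84.6 FPKM in the control and 87.1 and 78.5 in the mutant libraries, which does not check the genotype labels, because no source used here names the part that Cre removes. Replicate 1 of each group had Y-linked Ddx3y (27.7 and 26.4 FPKM) and little Xist (0.0789 and 0.131), while Xist reached 81.0 and 74.0 FPKM in the replicate 2 libraries, where Ddx3y was at 0.0301 and 0.0265. Replicate number and this sex pattern therefore coincide. The defining markers Scnn1g, Foxi1 and Upk3a were all above 17 FPKM in each library. They are members of the set, so their presence shows that these transcripts were in the tissue and does not check the set.

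No member passed the test between mutant and control kidneys. With limma on log2(FPKM + 1) over 13287 genes that reached an FPKM of 1 in at least 2 libraries, 0 of 26 tested members had an adjusted p (Benjamini-Hochberg) under 0.05, against 0.158% of all genes tested (0.0452% higher and 0.113% lower in the mutants). None of the 26 had an unadjusted p under 0.05 either, against 7.24% of all genes (2.67% higher and 4.57% lower). The lowest adjusted p among members was 0.70, for Elf5. Changes were positive for 17 members and negative for 9, with a median of 0.036 on the log2 scale, beside a median of 0.022 over all genes tested, of which 55.3% were positive. The mutant libraries lay above both control libraries for 4 members (Elf5, Ehf, Upk1b and Upk3a), against 22.7% of all genes, and below both for 4 members (Emx2, Tfcp2l1, Scnn1a and Cdh16), against 17.1%. Both counts are near or below those background shares. A missed threshold with 2 libraries per group does not show equal levels. The interval of each change gives what was resolved, from about 0.2 either side of the estimate for Cdh16 and Epcam to over 2 for Krt5.

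**Figure D1:**
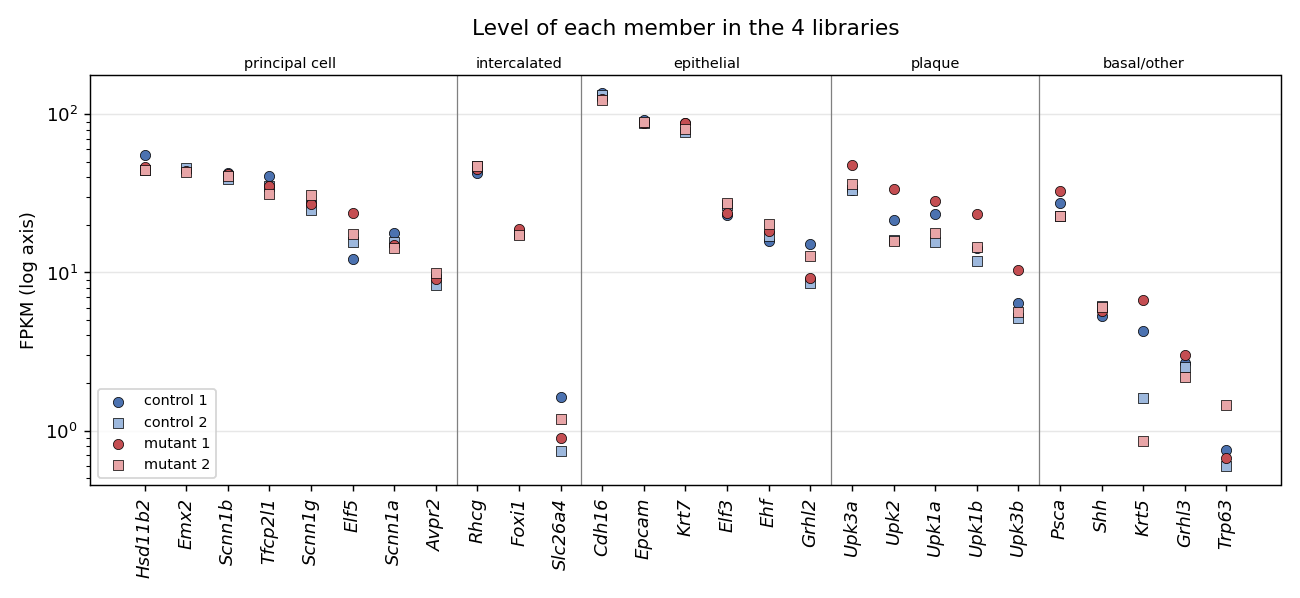
FPKM (log axis) of the 27 members with a row in all libraries, ordered by role and by mean level. Circles are replicate 1 and squares replicate 2, blue control and red mutant; Cdh16 is the highest member at 123 to 136 FPKM, and the 4 symbols of most collecting duct genes lie on top of each other, while the uroplakins and Krt5 spread apart.

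Transcription factors of the ureteric tree and its principal cells differed from control by small amounts, apart from Elf5. Emx2, a homeobox factor needed for growth of the ureteric bud, was at 43.6 and 45.7 FPKM in the control and 43.6 and 43.1 FPKM in the mutant libraries. Its log2 change was -0.042 (SE 0.072; 95% interval -0.24 to 0.15). The controls thus lie above the mutants by a margin smaller than the gap between the controls themselves. Emx2 overlaps Emx2os, an opposite-strand transcript, in both control assemblies but not in the mutant ones. On mm9 chromosome 19, where Emx2 starts at 59533180, the Emx2os locus ran to 59533448 and 59533430 in the controls but stopped at 59533125 in the mutants. Emx2os itself was at 27.0 and 24.4 against 4.11 and 4.66 FPKM. The sources do not say that strand was used in counting, so reads of this pair cannot be assigned with certainty.

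Tfcp2l1, a grainyhead-related factor of duct maturation, was at 41.0 and 35.3 FPKM in control and 35.2 and 31.3 FPKM in mutant kidneys, a log2 change of -0.19 (SE 0.12; interval -0.50 to 0.12). The groups were separated only by the small step between control replicate 2 and mutant replicate 1. Gata3, a zinc-finger factor that maintains the ureteric duct, had its own row in control replicate 2 alone, at 31.6 FPKM. In the other libraries it was joined with the neighbouring transcript 9230102O04Rik, at 40.9 FPKM in control replicate 1 and 40.8 and 38.2 FPKM in the mutant libraries. With both names added up, control replicate 2 was at 42.4 FPKM, so the 4 values of the joint locus spanned 38.2 to 42.4 FPKM. Their log2 change was -0.073, with a limma adjusted p of 0.81, in a fit chosen after seeing the data.

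Elf5, an Ets-family factor that marks principal cells in the mouse, showed the largest positive difference among the members. It was at 12.2 and 15.7 FPKM in the control and 23.8 and 17.6 FPKM in the mutant libraries, so both mutants were above both controls, with mutant replicate 1 highest. The log2 change was 0.53 (SE 0.20; interval -0.012 to 1.08), with an unadjusted limma p of 0.053 and an adjusted p of 0.70. Within replicate 1 the mutant library exceeded the control by 0.91 on the log2 scale, and within replicate 2 by 0.16. The assembled locus (mm9 chromosome 2, 103252255 to 103291145) had the same boundaries in all libraries. Its authors' interval in mutant replicate 1, from 20.1 to 27.6 FPKM, lay above the intervals of the other 3 libraries. This was the case for no other collecting duct member.

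The sodium channel subunits and the hormone system around them did not pass the test, with log2 changes from -0.17 (Scnn1a) to 0.15 (Scnn1g). Scnn1b, the beta subunit of ENaC, was at 42.8 and 39.0 FPKM in control and 42.2 and 40.7 FPKM in mutant libraries, a log2 change of 0.019 (interval -0.21 to 0.24) that is slightly negative under another scaling. Scnn1g, the gamma subunit, was at 27.8 and 24.7 against 27.2 and 31.1 FPKM, with mutant replicate 2 highest (log2 change 0.15, interval -0.16 to 0.45). Scnn1a, the alpha subunit, was at 17.8 and 15.7 against 15.0 and 14.3 FPKM, both mutants below both controls (log2 change -0.17, interval -0.48 to 0.14; limma adjusted p = 0.76). The order beta above gamma above alpha held in every library.

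The beta to alpha ratio of FPKM was 2.40 and 2.49 in the control and 2.81 and 2.84 in the mutant libraries. The gamma to alpha ratio was 1.56 and 1.58 against 1.81 and 2.17. Both ratios were higher in the mutants without overlap, each with a two-sided exact permutation p of 0.333, the smallest that 2 libraries against 2 allow (adjusted p of 1 over the 7 ratios computed). The beta to gamma ratio was 1.54 and 1.58 against 1.55 and 1.31, and overlapped between the groups. Hsd11b2, the enzyme that inactivates glucocorticoids and so keeps the mineralocorticoid receptor selective for aldosterone, was at 55.6 and 44.3 against 46.3 and 44.3 FPKM. Control replicate 1 alone was high, and the log2 change of -0.13 (interval -0.48 to 0.22) turned to 0.030 without that library. Avpr2, the vasopressin V2 receptor, stayed between 8.37 and 9.86 FPKM in the 4 libraries.

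The intercalated cell members of the set differed little between groups. Foxi1, the forkhead factor that specifies these cells, was at 17.6 and 17.4 FPKM in the control and 18.8 and 17.2 FPKM in the mutant libraries (log2 change 0.040, interval -0.23 to 0.31). Rhcg, an ammonia channel, was at 42.6 and 47.2 against 45.1 and 47.0 FPKM (log2 change 0.037, interval -0.19 to 0.27). Slc26a4, the chloride-bicarbonate exchanger pendrin, was near the lower limit of what was tested, at 1.63 and 0.743 against 0.900 and 1.19 FPKM. Its controls were farther apart than the group means, so no direction can be read from it.

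Epithelial members that ducts share with other tubules held the highest levels of the set. Cdh16, the kidney cadherin of tubule epithelia, was at 136 and 133 FPKM in control and 126 and 123 FPKM in mutant libraries, a log2 change of -0.11 (SE 0.065; interval -0.28 to 0.066). Epcam, an epithelial adhesion molecule, ranged from 87.8 to 92.6 FPKM over the 4 libraries, and the keratin gene Krt7 from 77.2 to 88.6 FPKM. The groups overlap for Epcam and Krt7, and for Cdh16 both mutant libraries lie below both controls.

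The Ets factors Ehf and Elf3 and the grainyhead factor Grhl2, regulators of epithelial identity, followed no common pattern. Ehf was at 15.7 and 17.0 FPKM in control and 18.4 and 20.2 FPKM in mutant kidneys, with both mutants higher (log2 change 0.22, SE 0.11, interval -0.066 to 0.51; limma adjusted p = 0.76). Elf3 was at 23.0 and 26.7 against 23.7 and 27.7 FPKM, so that the replicate 2 libraries exceeded the replicate 1 libraries in both groups. Grhl2 was at 15.2 and 8.62 against 9.17 and 12.7 FPKM. In 3 of the libraries an unnamed locus lay over the start of Grhl2 (mm9 chromosome 15, from 37161688 to 37163055 in control replicate 2). It held 8.76 FPKM there and 11.7 and 10.2 FPKM in the mutant libraries. Control replicate 1, where Grhl2 was highest, had no such locus. The part of this assembly difference in the Grhl2 values was not tested.

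**Figure D2:**
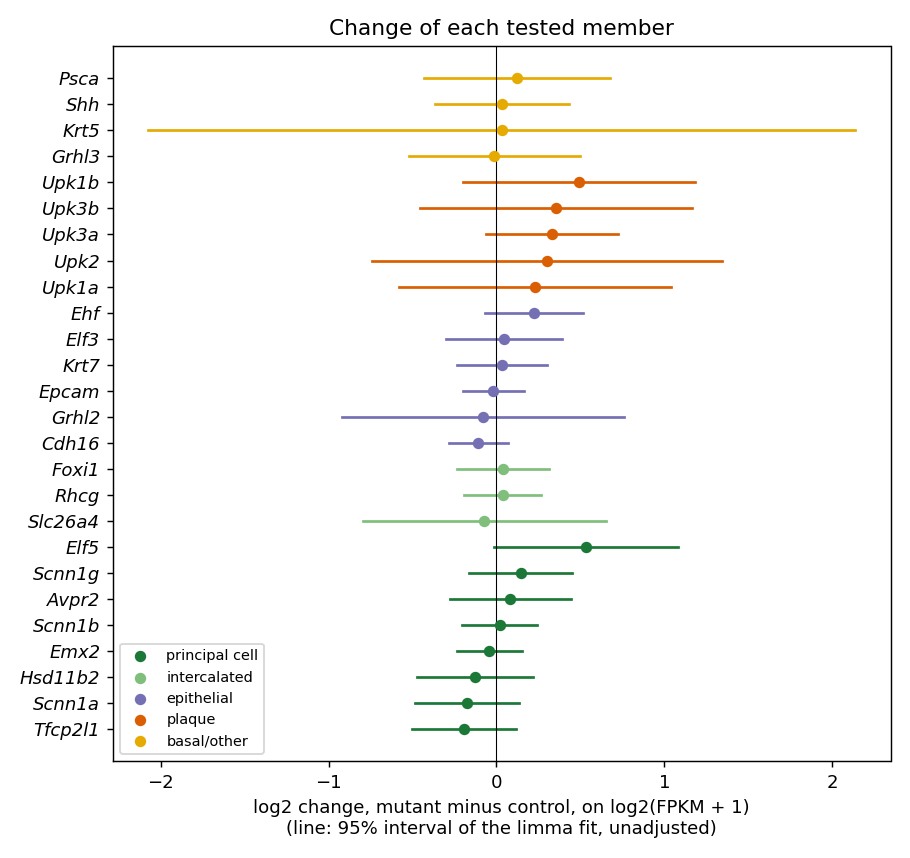
Log2 change (mutant minus control, on log2(FPKM + 1)) of the 26 tested members, with the unadjusted 95% interval of the limma fit, coloured by role. Every interval includes 0; all 5 plaque genes have positive estimates, from 0.23 to 0.49, and Krt5 has the widest interval.

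Uroplakin genes differed among libraries, with a median ratio of highest to lowest library of 1.99. Uroplakins Ia and Ib are tetraspanins that pair with uroplakin II and with uroplakins IIIa or IIIb, respectively, before they reach the cell surface. Upk1a was at 23.3 and 15.5 FPKM in the control and 28.4 and 17.8 FPKM in the mutant libraries. Its partner Upk2 was at 21.4 and 16.0 against 33.6 and 15.7 FPKM. Both genes were highest in mutant replicate 1, followed by control replicate 1, and the replicate 2 libraries were low whatever their genotype.

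Upk1b was at 14.2 and 11.7 FPKM in control and 23.6 and 14.6 FPKM in mutant libraries (log2 change 0.49, SE 0.26, interval -0.20 to 1.18; limma adjusted p = 0.76). Upk3a was at 33.1 and 33.1 against 47.9 and 36.5 FPKM (log2 change 0.33, SE 0.15, interval -0.065 to 0.73; adjusted p = 0.76), and Upk3b at 6.45 and 5.18 against 10.3 and 5.66 FPKM. For Upk1b and Upk3a both mutants were above both controls, although mutant replicate 2 exceeded the nearer control by under 4 FPKM. Mutant replicate 1 was highest for all 5 plaque genes.

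Printed to show what lies before these co-varying genes, the promoters below are the 250 bases before the RefSeq transcript start in build GRCm38.p6, 5′ to 3′ on the gene's strand, for the 3 uroplakin genes in the RefSeq table used here. Capitals mark matches to short binding motifs of factors in the set or of Hnf4a, searched on both strands. The motif for Gata factors was AGATAA, the motif for Ets factors was GGAAGT, the motif for grainyhead factors was AACNNGTT and the motif for Hnf4 was CAAAGTCCA.
Upk1a, chr7:30612735-30612984, minus strand: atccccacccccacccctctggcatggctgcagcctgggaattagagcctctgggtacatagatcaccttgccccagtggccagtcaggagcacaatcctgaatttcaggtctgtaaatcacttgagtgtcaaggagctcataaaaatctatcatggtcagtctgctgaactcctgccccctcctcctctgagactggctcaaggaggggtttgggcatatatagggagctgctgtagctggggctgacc
Upk3a, chr15:85016891-85017140, plus strand: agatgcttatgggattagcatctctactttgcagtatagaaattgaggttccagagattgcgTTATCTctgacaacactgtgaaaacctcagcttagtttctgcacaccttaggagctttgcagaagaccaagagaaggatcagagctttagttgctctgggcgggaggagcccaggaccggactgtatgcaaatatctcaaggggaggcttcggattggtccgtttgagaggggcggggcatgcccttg
Upk3b, chr5:136038246-136038495, plus strand: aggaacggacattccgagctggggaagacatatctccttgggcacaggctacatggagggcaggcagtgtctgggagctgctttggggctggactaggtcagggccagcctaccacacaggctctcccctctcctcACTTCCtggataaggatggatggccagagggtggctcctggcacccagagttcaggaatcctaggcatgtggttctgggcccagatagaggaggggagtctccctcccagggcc

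The Gata letters stood 183 to 188 bases before the Upk3a start and the Ets letters 109 to 114 bases before the Upk3b start, both on the opposite strand. Among 18 members matched by symbol in that table, the Gata motif was found for 1 (Upk3a), the Ets motif for 2 (Upk3b and Krt7), and the grainyhead and Hnf4 motifs for 0. Of all 32851 windows of this length, 9.99% held the Gata motif, 19.7% the Ets motif, 3.64% the grainyhead motif and 0.384% the Hnf4 motif, so the matched motifs are common outside the set. A match is a description of letters and not a binding site.

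Assembly differed for some of these genes too. In mutant replicate 1 the Upk2 locus began at 44255848 of mm9 chromosome 9, against 44260798 elsewhere, and the Upk3b locus ended at 136521096 of chromosome 5, against 136520863 elsewhere. The boundaries of Upk3a (chromosome 15, 84847571 to 84852990), Psca and Krt5 were the same in every library, and these genes were highest in mutant replicate 1 as well. The FPKM of Upk3a lay above the authors' own interval in both mutant libraries, and that of Psca in mutant replicate 1, so these intervals are not centred on the values. Such values made up 3 of the 112 member values.

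The basal and other urothelial genes were lower and less uniform. Krt5, the keratin of basal cells, was at 4.25 and 1.62 FPKM in control and 6.71 and 0.860 FPKM in mutant libraries. It thus followed the replicate number in both groups. Its highest value was 7.80 times its lowest, the largest ratio among members, and its log2 change of 0.031 (interval -2.07 to 2.14) turned negative with smaller pseudocounts and with FPKM rescaled to equal sums, though not with equal median ratios. Trp63, the factor that maintains basal cells, was at 0.754 and 0.593 against 0.669 and 1.46 FPKM, and it was not tested because it reached 1 FPKM in only 1 library. That library, mutant replicate 2, was the one with the lowest Krt5.

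Krt15, another basal keratin, was at 1.70 and 0.794 FPKM in control and 1.80 FPKM in mutant replicate 1. In mutant replicate 2 it was joined with Krt19, at 56.2 FPKM for the pair. The pair's sum in the other libraries was 59.9 and 56.2 FPKM in control and 67.0 FPKM in mutant replicate 1, so Krt19 made up most of it and Krt15 could not be read there. Psca, a surface antigen of urothelial cells, was at 27.6 and 22.7 against 32.6 and 22.9 FPKM, again with the replicate 1 libraries above the replicate 2 libraries. Shh, the signal that urothelium sends to the surrounding mesenchyme, stayed between 5.29 and 6.13 FPKM, and the grainyhead factor Grhl3 between 2.20 and 3.02 FPKM. Neither of these differed between groups by more than its spread.

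The order of the libraries differed between the urothelium and the collecting duct members. Mutant replicate 1 was the highest of the 4 libraries for 8 of 9 tested urothelium members, against 3 of 17 collecting duct members and 21.0% of all genes tested. Both replicate 1 libraries lay above both replicate 2 libraries for 6 of 9 urothelium members (all tested except Upk1b, Upk3a and Shh), against 4 of 17 collecting duct members and 14.5% of all genes. The median ratio of highest to lowest library was 1.91 for 10 urothelium members and 1.20 for 17 collecting duct members, beside 1.27 for all tested genes above 0 in every library. The authors' intervals of the 4 libraries shared a common range for 11 of 17 collecting duct members and 4 of 10 urothelium members, none of which was a plaque gene.

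**Figure D3:**
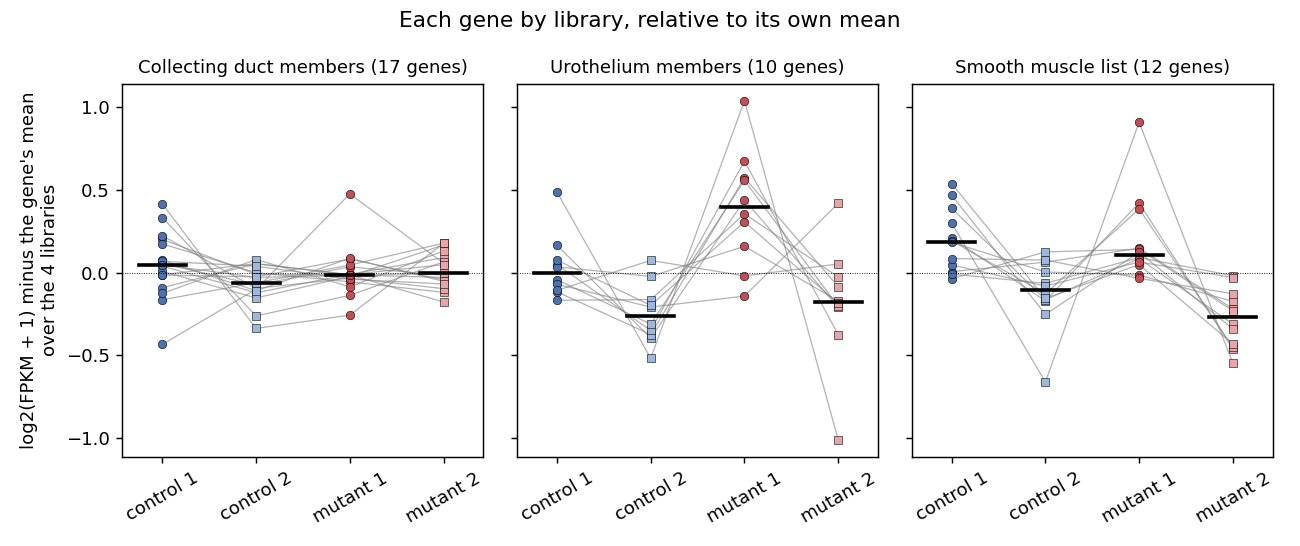
Log2(FPKM + 1) of each gene minus its own mean over the 4 libraries, for 17 collecting duct members, 10 urothelium members and 12 smooth muscle genes; grey lines join a gene's values and black bars are medians. Collecting duct medians stay between -0.061 and 0.047, whereas the urothelium median is 0.40 in mutant replicate 1 and -0.26 and -0.18 in the replicate 2 libraries, and smooth muscle is also lower in both replicate 2 libraries.

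The median log2 change of the 9 tested urothelium members was 0.23, and of the 17 collecting duct members 0.019. The first value moved with each library left out: it was 0.49 without control replicate 1, 0.10 without control replicate 2, 0.55 without mutant replicate 2 and -0.094, with its direction turned, without mutant replicate 1. Taken within replicate 1, the mutant library exceeded the control for 9 of 9 urothelium members, with a median of 0.52 on the log2 scale. Within replicate 2 it did so for 5 of 9, with a median of 0.013. For the plaque genes alone the medians were 0.60 within replicate 1, with 5 of 5 higher, and 0.14 within replicate 2, with 4 of 5 higher (all but Upk2). The medians over all genes tested were 0.031 and 0.013. Collecting duct members had medians of -0.030 and 0.052 in the same comparisons, with 6 and 10 of 17 higher.

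**Figure D4:**
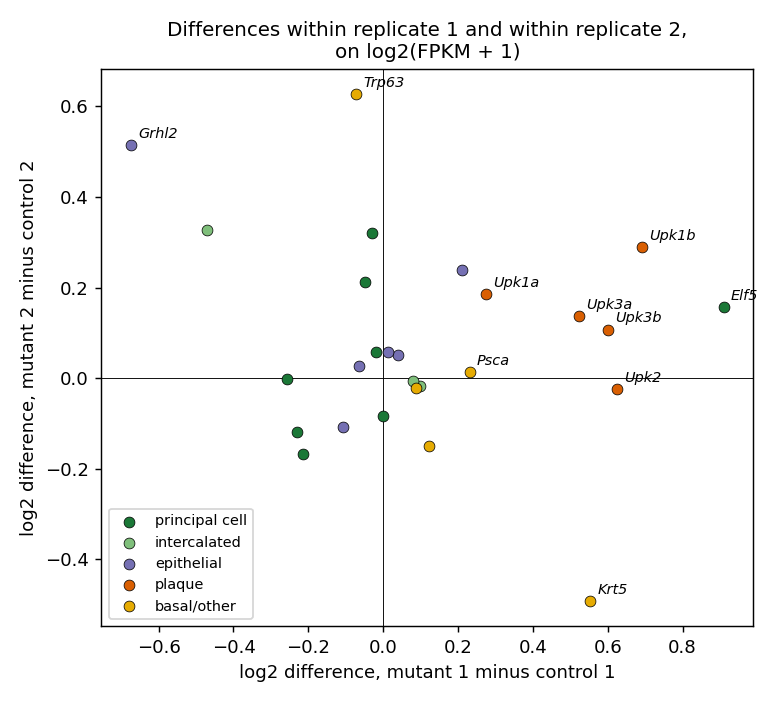
Difference between mutant and control on log2(FPKM + 1) within replicate 1 (horizontal) and within replicate 2 (vertical), one point per member, coloured by role. Plaque genes lie to the right, at 0.27 to 0.69 within replicate 1 but -0.025 to 0.29 within replicate 2, and Grhl2 and Krt5 differ in opposite directions between the replicates.

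Smooth muscle genes of the ureter and pelvis were read beside the urothelial ones. Of 12 such genes, 9 had negative changes, with a median of -0.080 on the log2 scale. Of the 12, 0 passed either limma threshold, against 0.158% (adjusted) and 7.24% (unadjusted) of all genes. The mutants lay below both controls for 2 (Smtn and Tshz3), against 17.1% of all genes, and above both for 0, against 22.7%. Both replicate 1 libraries exceeded both replicate 2 libraries for 8 of the 12, against 14.5% of all genes. Mutant replicate 1 was highest for 7, against 21.0%. Actg2, the enteric-type smooth muscle actin, was at 11.5 and 5.43 FPKM in control and 18.1 and 5.95 FPKM in mutant libraries. Myh11, smooth muscle myosin, was at 15.5 and 11.6 against 18.1 and 9.34 FPKM. Tagln, the highest of the list, was at 97.2 and 109 against 110 and 84.9 FPKM. Acta2 was at 81.9 and 85.2 against 90.4 and 69.9 FPKM. For Tagln and Acta2, control replicate 2 thus lay above control replicate 1. The summed level of the list was 331 and 317 FPKM in control and 352 and 265 FPKM in mutant libraries. Others of the list were highest in control replicate 1, such as Synpo2, at 12.7 and 7.32 against 9.80 and 6.83 FPKM. Centred on each gene's mean, the smooth muscle median was highest in control replicate 1 (0.19, against 0.11 in mutant replicate 1), unlike the urothelium median. How much tissue of the pelvis and ureter entered each library, and its part in the urothelial values, was not tested.

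Further genes listed for the urothelium outside the set, among them the mesenchymal signalling genes Ptch1, Gli1 and Bmp4, moved in both directions. Of 16 tested, 0 passed the adjusted threshold with limma and 2 had an unadjusted p under 0.05 (Fgfr3 and Perp), against 7.24% of all genes. Changes were positive for 9 and negative for 7, with a median of 0.023 on the log2 scale. Fgfr3, a growth factor receptor, was at 20.1 and 16.8 FPKM in control and 14.0 and 14.1 FPKM in mutant libraries. Perp, a desmosome-associated membrane protein, was at 14.7 and 16.2 against 9.01 and 11.5 FPKM. For both, the mutants lay below both controls, as for 4 of the 16, against 17.1% of all genes. Ptch1 and Gli1 were also among these 4. Their log2 changes were -0.21 (interval -0.51 to 0.10) and -0.23 (interval -0.48 to 0.028). Bmp4 overlapped between the groups, with a log2 change of 0.037. The mutants lay above both controls for 3 of the 16, against 22.7%. Mutant replicate 1 was highest for 7 of the 16, against 21.0% of all genes. Both replicate 1 libraries exceeded both replicate 2 libraries for 6, against 14.5%. Sprr1a, a cornified envelope protein, was at 38.0 and 34.9 FPKM in control and 61.5 and 38.6 FPKM in mutant libraries. Krt20, the keratin of surface cells, was at 1.02 and 1.08 against 2.45 and 0.956 FPKM. The basal keratin gene Krt14 was at 1.40 and 1.29 against 2.16 and 0.769 FPKM, with the replicates of the mutant group on either side of the controls. Dsg3 was listed at 0 in all libraries, and Krt13 and Krt17 were under 1 FPKM.

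Because Upk1b and Upk3b are also made by mesothelium, the cell layer over abdominal organs, its other markers were read beside them. Msln was at 2.33 and 3.49 FPKM in control and 3.36 and 3.27 FPKM in mutant libraries, Lrrn4 was under 0.21 FPKM and Bnc1 was at or near 0 in each library. None of the 4 tested mesothelial genes outside the set was highest in mutant replicate 1. Of these, Gpm6a, also a neuronal membrane protein, was at 15.3 and 17.8 against 7.60 and 8.53 FPKM, with a limma adjusted p of 0.16. The summed level of the mesothelial list was 199 and 198 FPKM in control and 213 and 183 FPKM in mutant libraries. Its 3 set members were included, and Krt19 was left out because it lacked a row of its own in mutant replicate 2. The highest genes in the sum were the set member Krt7 and Wt1, at 58.6 and 69.2 against 64.8 and 55.2 FPKM. With Msln, Lrrn4 and Bnc1 low, the sum cannot be read as a level of mesothelium.

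Other tissues that could adhere to a dissected kidney were read in the same way. Of 7 epidermal markers, 3 could be tested and 0 passed, and Krt10, a keratin of outer skin layers, was at 19.5 ± 1.77 FPKM in control and 11.8 ± 1.10 FPKM in mutant libraries (mean ± SD, n = 2 each; limma adjusted p = 0.27, with the unadjusted p under 0.05). Krt1, its partner, was under 1 FPKM in each library, and Krtdap was at 0 in 3 of them. The epidermal list summed to 38.8 and 42.3 FPKM in control and 29.8 and 21.1 FPKM in mutant libraries. Krt10 and Sbsn were its highest genes, with Sbsn at 15.0 and 22.6 against 15.1 and 7.70 FPKM. Of 8 adrenal markers 1 could be tested, the list summed to between 1.97 and 2.47 FPKM, and the defining genes Cyp11b1 and Cyp21a1 were at 0 in all libraries. The part of any such tissue in the Krt5 values was not tested.

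In a wider principal cell list, 0 of 15 genes passed the adjusted limma threshold and 3 had an unadjusted p under 0.05, against 7.24% of all genes, with a median log2 change of -0.061. The mutants lay below both controls for 5 of the 15, against 17.1% of all genes, and above both for 1, against 22.7%. Its member Aqp2, the vasopressin-regulated water channel, was at 187 and 158 FPKM in control and 165 and 146 FPKM in mutant libraries. Fxyd4 was at 87.6 and 95.1 against 92.6 and 88.5 FPKM, and Prss8, a protease that activates ENaC, at 75.7 and 73.4 against 61.3 and 62.9 FPKM. The 3 genes were Prss8, Tmem45b and the potassium channel gene Kcnj1, with Kcnj1 higher and the other 2 lower in the mutants. Tmem45b, a membrane protein, was at 31.8 and 29.8 against 19.9 and 22.6 FPKM, a log2 change of -0.52 (SE 0.10) with an adjusted p of 0.30. Kcnj1 is also a gene of the thick ascending limb, a nephron segment.

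The intercalated cell list had 14 of 16 tested genes with positive changes, against 55.3% of all genes, and a median of 0.17, against 0.022. Of the 16, 0 passed either threshold, against 7.24% of all genes for the unadjusted one. Car2, carbonic anhydrase, was at 73.4 and 78.2 FPKM in control and 88.2 and 83.6 FPKM in mutant libraries. Atp6v1b1, a proton pump subunit, lay between 39.1 and 42.0 FPKM. Slc4a9, an anion exchanger of base-secreting cells, was at 12.6 and 12.5 against 32.9 and 14.8 FPKM, with mutant replicate 1 alone standing apart. In the list of ureteric tip and trunk genes, 0 of 15 passed, against 0.158% of all genes, and the median was 0.0063. The mutants lay above both controls for 4 of the 15, against 22.7% of all genes, and below both for 1, against 17.1%. Gfra1 was at 40.0 and 40.5 against 41.6 and 39.8 FPKM. Among the 4 were Calb1, a calcium-binding protein of ducts and distal tubules, at 48.9 and 59.5 against 117 and 67.1 FPKM, and Hoxb7. Hoxb7 was at 55.7 and 51.0 against 57.4 and 88.7 FPKM. Of 19 tested genes for duct and epithelial adhesion, 0 passed, with a median of -0.034.

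The scale of these differences can be set against genes of the nephron, in whose progenitors the Cre is active. For 10 proximal tubule genes, the mutant libraries lay below both controls in 10 of 10, against 17.1% of all genes. Their median log2 change was -1.44, and 1 of them (Vil1, which encodes villin) passed the adjusted threshold, against 0.158% of all genes. All 10 had an unadjusted limma p under 0.05, against 7.24% of all genes. Their summed level was 507 and 416 FPKM in control and 170 and 178 FPKM in mutant libraries. Other parts of the nephron did not share this size of change. The median log2 change was -0.0063 for 8 loop of Henle and distal tubule genes and -0.032 for 6 podocyte genes. In either list 0 were called, against 0.158% of all genes. The summed level of the 17 tested collecting duct members was 682 and 644 against 661 and 651 FPKM, with the mutants between the controls. That of the 9 urothelium members was 138 and 115 against 192 and 122 FPKM, and it was set mainly by the plaque genes, at 98.5 and 81.6 against 144 and 90.2 FPKM. No test of the difference between these lists was made.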

How the data were processed

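RNA of whole kidneys was poly(A)-selected and, per the labels' protocols, built into libraries with a kit made for DNA. The authors computed the deposited FPKM values and their intervals, 1 table per library, with Cufflinks 2.1.1 on mm9. TopHat2 2.0.11, SAMtools 0.1.19 and Bowtie 1.0.0 were also used, per the submitters' processing notes. No source used here names the annotation. Loci were assembled per library, so a gene's extent and name can differ between tables.

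Rows were joined by symbol. Of 23852 symbols, 22761 were in all tables, 99 with a row not marked OK were left out, and rows sharing a symbol were summed. The 13287 genes that reached 1 FPKM in 2 or more libraries were fitted on log2(FPKM + 1), which understates changes at low levels, with limma 3.58.1 in R 4.3.3 (trend, no further scaling, Benjamini-Hochberg over all genes, threshold 0.05). The fit was also run on simulated data with noise independent between genes. That run does not cover differences that many genes of a library share, such as the sex pattern. Groups came from sample titles. The members and lists were chosen with earlier results of these data known; every member is given, and other genes were named by highest level, a p under the threshold or, after their values were seen, for their pattern over libraries. Alternatives changed the pseudocount, filter, scaling, variance model, row choice, replicate block and the libraries used. Promoters came from RefSeq on GRCm38.p6 and were not combined with mm9 coordinates.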

Additional observations from a re-analysis of the deposited data

How the results depend on the processing

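Under all 14 alternatives 0 members passed the adjusted limma threshold, with the lowest adjusted p at 0.25 (Hsd11b2, without control replicate 2). Over all genes, 21 were called, against 10 without a filter on low values, 11 without a variance trend, 6 with the replicate number as a block and 0 to 14 with 1 library left out. The collecting duct median ranged from -0.046 to 0.045 and the urothelium median from -0.094 to 0.55 with 1 library left out, the latter moving by over 1.5 times whichever library was left out. Same-numbered libraries share the sex pattern, but no label pairs them: their deviations from the group means correlated at 0.15 over genes. With the replicate block 1 member (Upk1b) had an unadjusted limma p under 0.05, as had 1022 of 13287 genes tested. Elf5 fell under it with an FPKM of at least 1 required in all libraries and with sums rescaled. With 1 library left out, the log2 change ranged from 0.32 to 0.74 for Elf5, 0.16 to 0.82 for Upk1b and 0.14 to 0.52 for Upk3a. Filter, variance model, row choice, replicate block and joint loci leave a member's change as it was, so those refits could not turn it. Of 362 refits of single members, these included, 330 kept their direction. It turned for Krt5 with pseudocounts of 0.1 (-0.096) and 0.5 (-0.018) and with sums rescaled (-0.0069), for Epcam (0.014) and Grhl3 (0.011) with sums rescaled, and for Scnn1b with equal median ratios (-0.0023). With 1 library left out, the log2 change turned for 16 members, with ranges of -0.062 to 0.15 (Elf3), -0.057 to 0.019 (Epcam), -0.023 to 0.10 (Foxi1), -0.46 to 0.30 (Grhl2), -0.18 to 0.15 (Grhl3), -0.29 to 0.030 (Hsd11b2), -0.99 to 1.06 (Krt5), -0.057 to 0.13 (Krt7), -0.12 to 0.37 (Psca), -0.035 to 0.11 (Rhcg), -0.046 to 0.084 (Scnn1b), -0.058 to 0.12 (Shh), -0.37 to 0.23 (Slc26a4), -0.094 to 0.55 (Upk1a), -0.22 to 0.83 (Upk2) and -0.027 to 0.74 (Upk3b). The cause was not tested. A group reduced to 1 library borrowed its spread from the other group. With joint loci put together, an alternative chosen after seeing the data, the medians were 0.00014 and 0.18. Depth is unknown.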
